A study of Sus scrofa with 6 samples.

Results

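The genes described here are 9 enzymes that carry pyruvate into and around the citric acid cycle: PDHA1, PDK1, CS, IDH2, IDH3A, OGDH, SUCLG1, FH and MDH2. They were found by gene name in a deposited table of transcript abundance, and all 9 names were present, each with 1 of the 31908 Ensembl pig gene IDs. The table covered 6 RNA-seq libraries of IPEC-J2, a non-transformed epithelial line from the jejunum of newborn piglets. The CON group had 3 libraries of PBS-treated cells, and the CDCA group had 3 libraries of cells exposed to 50 μM chenodeoxycholic acid (CDCA), a primary bile acid, and RNA was taken after 24 h in both groups. A single cell line was used, at 1 dose and 1 time, and the study calls the 3 libraries of a group biological replicates without saying whether they came from separate cultures, so p-values measure only the spread between these libraries.

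Pyruvate made by glycolysis enters the mitochondrion, where the pyruvate dehydrogenase complex turns it into acetyl-CoA. This entry is closed by pyruvate dehydrogenase kinases, which phosphorylate the alpha subunit of the complex, and reopened by its phosphatases. Citrate synthase joins acetyl-CoA to oxaloacetate, and the cycle then passes through citrate, isocitrate, 2-oxoglutarate, succinyl-CoA, succinate, fumarate and malate back to oxaloacetate. The reduced cofactors formed on the way feed the respiratory chain, part of which is encoded by mitochondrial DNA (mtDNA). All 9 enzymes described here are encoded in the nucleus. In the small intestine, epithelial cells are known to oxidise glutamine as well as glucose in this cycle.

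Abundance was given as TPM, the share of a transcript among all transcripts of a library after division by its length, scaled to a total of 1000000. The listed rows summed to between 351770 and 366073 TPM per library, short of that total, so a gene's value covers its listed transcripts and may miss others. Of 10 epithelial markers, 9 were listed and 6 had a mean of at least 1 TPM (EPCAM, KRT8, KRT18, CLDN1, CLDN4 and TJP1), whereas CDH1, VIL1 and OCLN lay under 1 TPM in every library. No fibroblast marker of 7 reached a mean of 1 TPM. Of 8 immune cell markers only CD14 and CD68 did, with a summed level of the list of 1.79 to 3.13 TPM in CON and 7.90 to 8.79 TPM in CDCA, while PTPRC was at most 0.01 TPM, and of 5 endothelial markers PECAM1 did. The part of these markers in the results was not tested. Of the listed TPM, 14.3% ± 0.64 in CON and 3.20% ± 0.28 in CDCA came from mtDNA-encoded mRNAs (SD, n = 3 per group). Since TPM is a share of a total, values scaled to the listed rows without these mRNAs are given below wherever they change a result. That total also leaves out the transcripts not listed. The part of these mRNAs by themselves in a change under it was not tested.

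After CDCA, 5 of the enzymes were lower and none passed the limit of a log2 fold change of 1. OGDH and PDK1 fell most, to 0.715 and 0.778 times their CON mean, and CS, PDHA1 and IDH2 fell to 0.886, 0.904 and 0.913 times theirs. SUCLG1, the most abundant, stood at 117 TPM in both groups. FH had a higher mean in CDCA but overlapping libraries, and IDH3A and MDH2 were listed too low to be tested. The test was limma with a mean-variance trend on log2(TPM + 1), over the 8708 genes whose mean reached 1 TPM, with Benjamini-Hochberg adjustment (FDR), and 7 of the 9 genes passed that limit. With FDR under 0.05 as the rule, 5 of the 7 tested genes were lower, against 23.9% of all tested genes. That count was 3 without CON replicate 1, 2 without CON replicate 2, CDCA replicate 1 or CDCA replicate 3, and 1 when each gene was represented by its highest listed transcript. It was 2 in limma without the trend, and 3 with no filter on low values or with the listed TPM rescaled to 1000000. None of the 7 was higher, against 29.3% of all tested genes, and none was higher at an unadjusted p under 0.05 or in limma without the trend. FH was called higher without CDCA replicate 3 and for its highest listed transcript alone. None passed FDR 0.05 together with a log2 fold change over 1 in size, a rule that 7.42% of all tested genes passed, and none did so at an unadjusted p or without the trend. The 3 CON and the 3 CDCA libraries did not overlap for 5 of the 7, against 61.5% of all tested genes. The median log2 fold change was -0.14 for the 7 genes and 0.05 for all tested genes. In bulk RNA, fewer cells with a transcript and less of it per cell cannot be told apart.

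**Figure D1:**
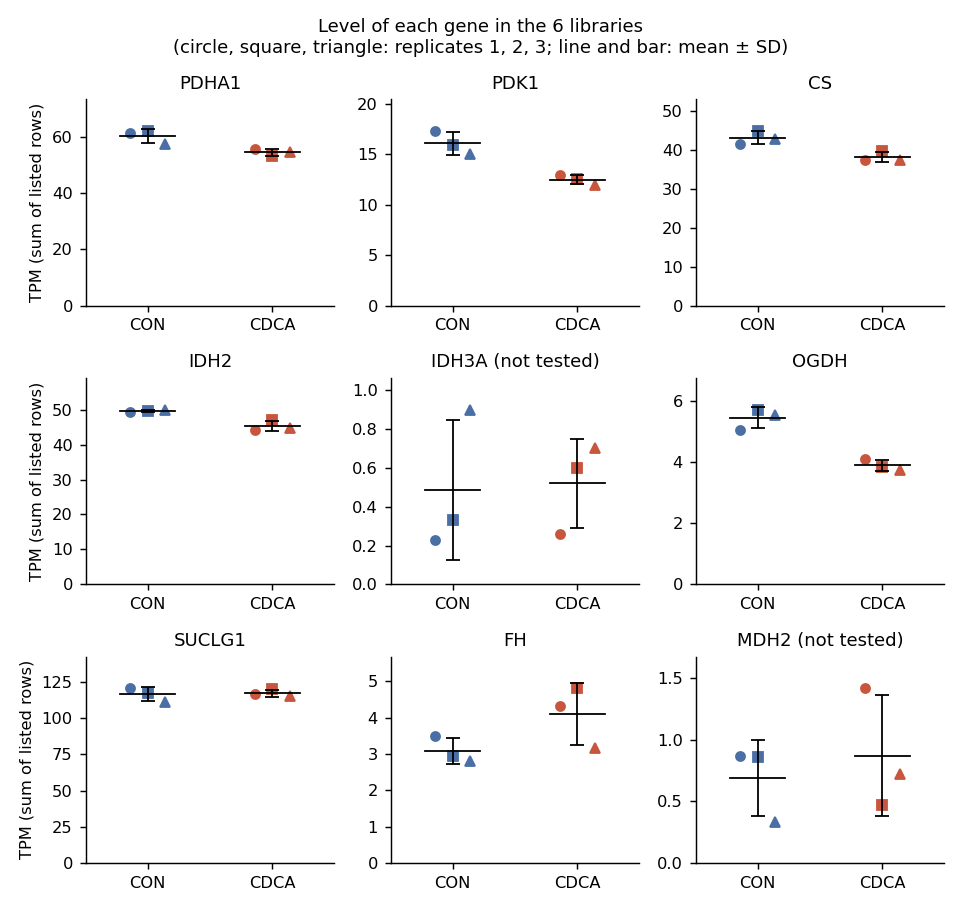
Each panel plots the TPM of a gene, summed over its listed transcripts, in the 3 CON (blue) and 3 CDCA (red) libraries, with the mean ± SD (n = 3); each vertical axis starts at 0. The groups separate for PDHA1, PDK1, CS, IDH2 and OGDH, overlap for SUCLG1 and FH, and IDH3A and MDH2 lie under 1.5 TPM throughout.

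PDHA1 (ENSSSCG00000023643) encodes the alpha subunit of pyruvate dehydrogenase, the subunit that carries the regulatory phosphorylation sites. It stood at 61.4, 62.1 and 57.6 TPM in CON replicates 1 to 3, compared with 55.7, 53.2 and 54.7 TPM in CDCA replicates 1 to 3. The highest CDCA library thus lay just under the lowest CON library. The log2 fold change was -0.14 (SE 0.04, limma FDR 0.033). If any library but CON replicate 3 was left out, the FDR lay between 0.059 and 0.11. It was 0.17 for the highest listed transcript alone, 0.081 in limma without the trend, 0.061 with no filter on low values and 0.068 with the listed TPM rescaled.

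PDK1 (ENSSSCG00000015958) encodes a pyruvate dehydrogenase kinase, an inhibitor of the complex that is a known target of hypoxia-inducible factor. Its levels were 17.3, 15.9 and 15.0 TPM in the CON libraries versus 12.9, 12.6 and 12.0 TPM in the CDCA libraries. All CDCA libraries were lower than all CON libraries. This gave a log2 fold change of -0.34 (limma, SE 0.07, FDR 0.0054), and leaving out single libraries gave values between -0.38 and -0.29 with an FDR of at most 0.022; for its highest listed transcript alone the FDR was 0.058.

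CS (ENSSSCG00000035686) encodes citrate synthase, which catalyses the first step of the cycle and is often used as a marker of mitochondrial content. It was listed at 41.7, 44.9 and 42.9 TPM in the CON libraries, compared with 37.5, 39.8 and 37.5 TPM in the CDCA libraries. The groups did not overlap, and the log2 fold change was -0.17 (SE 0.05, limma FDR 0.022). The FDR rose to 0.077 without CON replicate 2, 0.075 without CDCA replicate 1 and 0.071 without CDCA replicate 3, and it was 0.28 for the highest listed transcript alone and 0.052 in limma without the trend.

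IDH2 (ENSSSCG00000001852) encodes the mitochondrial isocitrate dehydrogenase that makes NADPH. It was listed at 49.4, 49.6 and 50.04 TPM in CON, against 44.2, 47.0 and 44.8 TPM in CDCA. Each CDCA library lay below each CON library, and the log2 fold change was -0.13 (SE 0.04, limma FDR 0.033). If any library but CDCA replicate 2 was left out, the FDR lay between 0.059 and 0.11, and it was 0.087 in limma without the trend, 0.053 with no filter on low values and 0.0504 with the listed TPM rescaled. IDH3A (ENSSSCG00000032498), the catalytic subunit of the NAD-dependent isocitrate dehydrogenase, was listed at 0.23, 0.33 and 0.90 TPM in the CON libraries, compared with 0.26, 0.60 and 0.70 TPM in the CDCA libraries. These levels were too low to test, although the partner subunits IDH3B and IDH3G had means of 64.8 and 61.6 TPM over the 6 libraries. Transcripts of IDH3A that are not in the table would be missed, and their part in its low value was not tested.

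OGDH (ENSSSCG00000016743) encodes the first enzyme of the 2-oxoglutarate dehydrogenase complex, a step that controls the pace of the cycle. It was listed at 5.05, 5.71 and 5.54 TPM in the CON libraries, compared with 4.09, 3.82 and 3.75 TPM in the CDCA libraries. All 3 CDCA libraries were lower than all 3 CON libraries. The log2 fold change of -0.40 (SE 0.08, limma FDR 0.0053) was the largest in size among the tested genes of the 9, and leaving out single libraries gave values between -0.44 and -0.36 with an FDR of at most 0.024. With its highest listed transcript alone, the FDR was 0.059.

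SUCLG1 (ENSSSCG00000008247) encodes the alpha subunit shared by both forms of succinyl-CoA ligase, the step that yields GTP or ATP directly. It stood at 121, 118 and 111 TPM in the CON libraries, compared with 116, 120 and 115 TPM in the CDCA libraries. The 3 CDCA libraries fell within the range of the CON libraries. The log2 fold change was 0.01 with a 95% interval from -0.10 to 0.11 (limma FDR 0.89). With totals of the listed rows without the mtDNA-encoded mRNAs, it turned to -0.14 (limma FDR 0.019). With each library scaled to the same median ratio over the tested genes, it was -0.04 (limma FDR 0.40).

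FH (ENSSSCG00000028178) encodes fumarate hydratase, which turns fumarate into malate. Its levels were 3.48, 2.95 and 2.81 TPM in the CON libraries versus 4.33, 4.81 and 3.15 TPM in the CDCA libraries, so CDCA replicate 3 lay within the CON range and the other 2 CDCA libraries lay above it. The log2 fold change was 0.31 with a 95% interval from -0.04 to 0.66 (SE 0.14, limma FDR 0.12). Without CDCA replicate 3 it was 0.45 (limma FDR 0.023). MDH2 (ENSSSCG00000025486), the mitochondrial malate dehydrogenase that closes the cycle, was listed at 0.87, 0.86 and 0.33 TPM in the CON libraries, compared with 1.42, 0.47 and 0.72 TPM in the CDCA libraries. The groups overlapped and the mean was too low for a test, whereas its cytosolic counterpart MDH1 had a mean of 68.5 TPM. MDH1 was lower in CDCA, with a log2 fold change of -0.31 (limma FDR 0.0085).

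By mean TPM over the 6 libraries, the order of the 9 genes was SUCLG1 (117), PDHA1 (57.4), IDH2 (47.5), CS (40.7), PDK1 (14.3), OGDH (4.66), FH (3.59), MDH2 (0.778) and IDH3A (0.503). These are levels of the listed transcripts per length. IDH2 and CS overlapped in TPM across libraries, yet IDH2 was the higher in each library, with a ratio of IDH2 to CS between 1.10 and 1.20. FH and OGDH also overlapped: FH was the lower in all 3 CON libraries and in CDCA replicate 3, and the higher in CDCA replicates 1 and 2. MDH2 and IDH3A could not be ordered beyond their spread. All other neighbours in the order were apart in every library.

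A wider list of 51 genes, with the enzymes above among them, was used to set these changes in their pathway. Of the 48 genes listed by symbol, 35 were tested. Of these, 17 were lower in CDCA at an FDR under 0.05 and 5 were higher, against the 23.9% and 29.3% of all tested genes, and the median log2 fold change was -0.20. Without the 9 genes, 12 of 28 tested genes were lower and 5 were higher, with a median of -0.22. The 5 that were higher, named after their values were seen, were PDHX, SDHB, NFU1, ME1 and PCK2, and with totals computed without the mtDNA-encoded mRNAs only NFU1, ME1 and PCK2 were still higher, while 21 genes were lower, against 20.1% higher and 31.9% lower among all genes tested on that scale. That scaling took the listed rows without these mRNAs as its total. It moved the median of all tested genes from 0.05 to -0.08. The share of higher genes among all calls moved from 55.0% to 38.7%.

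**Figure D2:**
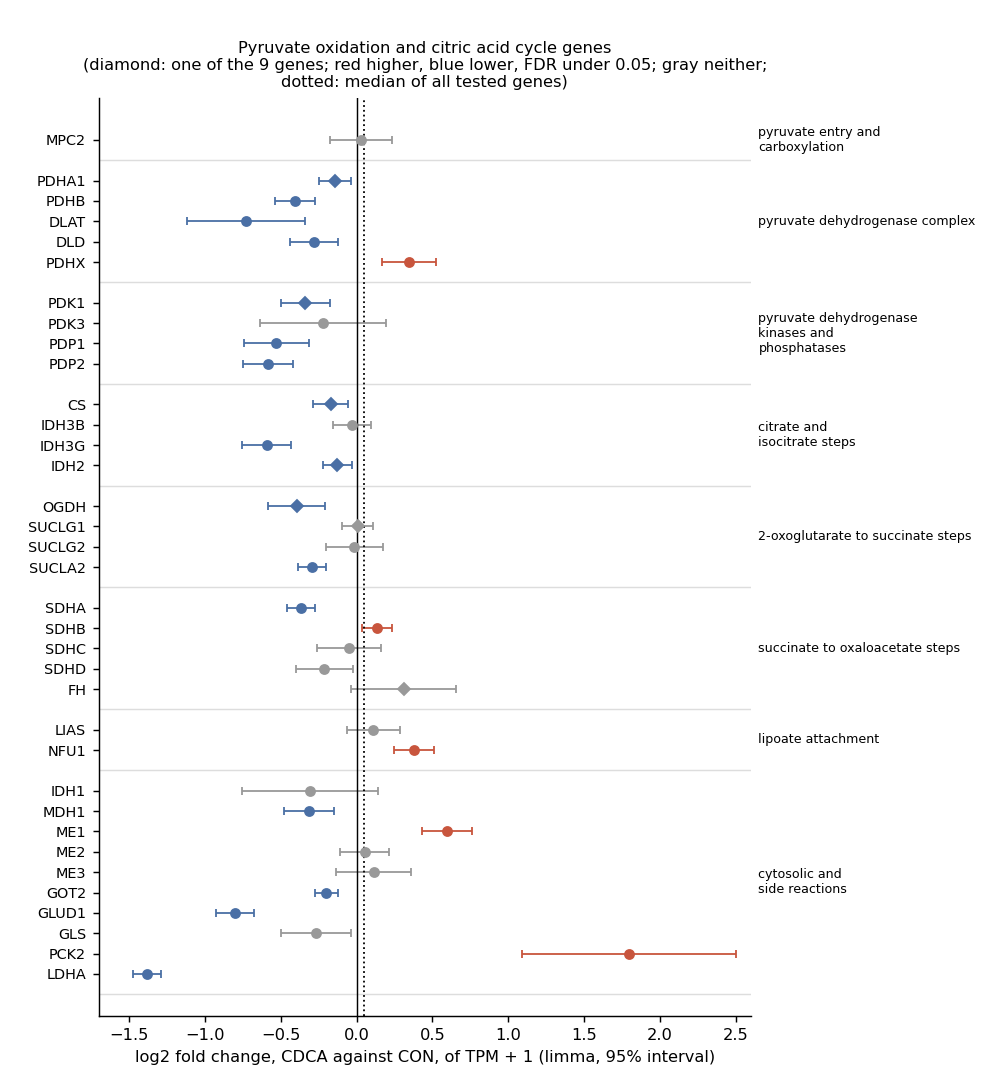
The plot gives the log2 fold change of TPM + 1, CDCA against CON, with its 95% interval from limma for the 35 tested genes of the pathway, grouped by step; diamonds are genes of the 9, blue and red mark genes lower and higher at an FDR under 0.05. Most points lie to the left of the dotted line, the median of all 8708 tested genes (0.05), with LDHA (-1.38) and PCK2 (1.80) at the ends.

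In the pyruvate dehydrogenase complex, all 5 genes were tested, and 4 fell while 1 rose. Here and at the steps below, 23.9% lower and 29.3% higher are the shares over all tested genes, and no step was tested against them. DLAT, the acetyl-transferring core, fell from a mean of 28.4 ± 4.5 to 16.8 ± 3.6 TPM (SD, n = 3 per group), with a log2 fold change of -0.73 (limma FDR 0.0089). PDHB, the beta subunit that pairs with PDHA1, fell from 54.3 ± 3.4 to 40.6 ± 0.94 TPM, with a log2 fold change of -0.41 (limma FDR 0.0010). DLD, the lipoamide dehydrogenase shared with the 2-oxoglutarate complex, had a log2 fold change of -0.28 (limma FDR 0.012). PDHX, which binds DLD to the core, rose from 8.60 ± 0.76 to 11.2 ± 0.33 TPM, with a log2 fold change of 0.35 (limma FDR 0.0075) that was 0.21 with an FDR of 0.056 in totals without the mtDNA-encoded mRNAs and 0.04 with an FDR of 0.83 for its highest listed transcript alone.

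The regulators of the complex that could be tested were PDK1, PDK3, PDP1 and PDP2, and both phosphatases fell along with PDK1. PDP1 fell from a mean of 21.1 ± 2.5 to 14.3 ± 0.28 TPM (SD, n = 3 per group), with a log2 fold change of -0.53 (limma FDR 0.0026). PDP2 fell from 9.37 ± 0.28 to 5.93 ± 0.37 TPM, with a log2 fold change of -0.58 (limma FDR 0.00053), although with its highest listed transcript alone the FDR was 0.11. PDK3 overlapped between the groups, with 4.61 ± 0.88 TPM in CON and 3.83 ± 0.86 TPM in CDCA (limma FDR 0.33). PDK2, PDK4 and PDPR, the last a regulatory subunit of the phosphatase, had means under 1 TPM and were not tested. PDK2 was listed at 0.73, 0.85 and 0.49 TPM in the CON libraries, compared with 1.16, 1.03 and 1.33 TPM in the CDCA libraries, and PDPR at 0.60, 0.41 and 0.43 TPM in the CON libraries, compared with 1.27, 0.82 and 0.97 TPM in the CDCA libraries. For both genes, the CDCA libraries lay above the CON libraries.

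At the citrate and isocitrate steps, 3 of 4 tested genes were lower and none was higher. IDH3G, a regulatory subunit of the NAD-dependent isocitrate dehydrogenase, fell from a mean of 74.3 ± 4.5 to 48.9 ± 3.2 TPM (SD, n = 3 per group), with a log2 fold change of -0.59 (limma FDR 0.00043). IDH3B stood at 65.5 ± 3.2 and 64.1 ± 2.5 TPM, with overlapping libraries and a log2 fold change of -0.03 (95% interval -0.15 to 0.09, limma FDR 0.65), which was -0.18 with an FDR of 0.014 in totals without the mtDNA-encoded mRNAs. IDH3B and IDH3G belong to the same enzyme, and the ratio between them is given below.

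Between 2-oxoglutarate and succinate, OGDH and SUCLA2 fell among 4 tested genes. SUCLA2, the beta subunit of the ATP-forming ligase, fell from a mean of 50.6 ± 1.2 to 41.1 ± 0.48 TPM (SD, n = 3 per group), with a log2 fold change of -0.29 (limma FDR 0.00090). SUCLG2, its GTP-forming counterpart, stood at 46.3 ± 4.3 and 45.7 ± 2.7 TPM (log2 fold change -0.01, 95% interval -0.20 to 0.17, limma FDR 0.89). DLST, the core of the 2-oxoglutarate complex, and OGDHL, a relative of OGDH, were listed between 0 and 0.28 TPM in every library and were not tested.

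From succinate to oxaloacetate, 1 of 5 tested genes was lower and 1 was higher. SDHA, the flavoprotein of succinate dehydrogenase, fell from a mean of 28.4 ± 0.22 to 21.8 ± 0.21 TPM (SD, n = 3 per group), with a log2 fold change of -0.37 (limma FDR 0.00039). SDHB, its iron-sulfur subunit, had a log2 fold change of 0.13 (limma FDR 0.034). That was -0.02 (limma FDR 0.70) with totals of the listed rows without the mtDNA-encoded mRNAs and 0.08 (limma FDR 0.14) with median ratio scaling. SDHB passed FDR 0.05 in 1 of the 6 fits with a library left out, the one without CON replicate 2 (0.080 to 0.087 in the others). The membrane subunits SDHC and SDHD were not called, with an FDR of 0.66 and 0.058; that of SDHD was 0.022 without CON replicate 3, 0.0073 in totals without the mtDNA-encoded mRNAs, 0.024 with median ratio scaling, 0.025 for its highest listed transcript and 0.045 over genes with a mean of 5 TPM or more. Of the subunits of this enzyme, SDHB alone had a log2 fold change above 0 as reported. With totals of the listed rows without the mtDNA-encoded mRNAs, all were below 0 (SDHA -0.51, SDHB -0.02, SDHC -0.20 and SDHD -0.36).

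The largest changes of the list were among the side reactions. Of 10 tested genes in these reactions, 4 were lower and 2 were higher. LDHA, which turns pyruvate into lactate in the cytosol, fell from a mean of 1248 ± 36 to 478 ± 15 TPM (SD, n = 3 per group), with a log2 fold change of -1.38 (limma FDR 2.9e-06). PCK2, the mitochondrial phosphoenolpyruvate carboxykinase, which draws oxaloacetate off the cycle, was listed at 1.23, 0.77 and 0.90 TPM in the CON libraries, compared with 6.51, 3.28 and 8.79 TPM in the CDCA libraries (log2 fold change 1.80, SE 0.29, limma FDR 0.0024). GLUD1, the glutamate dehydrogenase that feeds 2-oxoglutarate into the cycle, fell from 619 ± 37 to 354 ± 11 TPM, with a log2 fold change of -0.80 (limma FDR 4.6e-05). ME1, the cytosolic malic enzyme, rose from 49.5 ± 1.7 to 75.4 ± 6.7 TPM, with a log2 fold change of 0.59 (limma FDR 0.00050). NFU1, an iron-sulfur carrier needed to make lipoate, rose from 10.7 ± 0.23 to 14.2 ± 0.60 TPM (limma FDR 0.0015), while LIAS, the lipoate synthase, was not called (limma FDR 0.25). GLUD1 and ME1 were named after their values were seen. At the entry of pyruvate, MPC2, a subunit of the mitochondrial carrier, had a log2 fold change of 0.03 (95% interval -0.17 to 0.23, limma FDR 0.80). PC, LIPT2, ACO1, ACLY, GOT1 and LDHB had means under 1 TPM and were not tested, GOT1 being listed at 0 in every library, and MPC1, LIPT1 and BOLA3 were not found by symbol.

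A ratio of 2 genes within a library does not depend on how that library was scaled. The ratios were chosen after the levels were seen and are given as descriptions. The ratio of PDK1 to PDHA1 was 0.282, 0.256 and 0.261 in CON and 0.232, 0.237 and 0.219 in CDCA, so kinase mRNA was the lower relative to its substrate in all CDCA libraries. Relative to the phosphatases, the order was the opposite: the summed TPM of PDK1 to PDK4 over that of PDP1 and PDP2 was 0.709 ± 0.050 (SD, n = 3) in CON and 0.880 ± 0.016 (SD, n = 3) in CDCA, without overlap. Within the complex, the ratio to PDHA1 went from 0.900 ± 0.022 to 0.746 ± 0.032 for PDHB and from 0.143 ± 0.0099 to 0.205 ± 0.0078 for PDHX. Both ratios had no overlap between the groups.

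Relative to citrate synthase, PDHA1 and IDH2 had overlapping ratios between the groups, with means of 1.40 ± 0.067 and 1.43 ± 0.080 for PDHA1 and of 1.15 ± 0.042 and 1.19 ± 0.0096 for IDH2 in CON and CDCA (SD, n = 3). The ratio of OGDH to CS was lower in every CDCA library, at 0.126 ± 0.0041 and 0.102 ± 0.0067. That of SUCLG1 to CS was higher in every CDCA library, at 2.70 ± 0.17 and 3.07 ± 0.046, and that of FH to CS likewise, at 0.0715 ± 0.010 and 0.107 ± 0.020, where the highest CON value was 0.0835 and the lowest CDCA value 0.0841. The ratio of IDH3G to IDH3B went from 1.14 ± 0.11 to 0.764 ± 0.064 and that of SUCLA2 to SUCLG2 from 1.10 ± 0.081 to 0.902 ± 0.062, both without overlap. The ratio of LDHA to PDHA1 went from 20.7 ± 0.44 to 8.78 ± 0.36. The summed level of the 9 genes was 296 ± 8.0 TPM in CON and 277 ± 4.9 TPM in CDCA. Per 100 TPM of the mtDNA-encoded mRNAs, which held a smaller share in CDCA, it was 0.571 ± 0.022 and 2.44 ± 0.23 TPM.

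**Figure D3:**
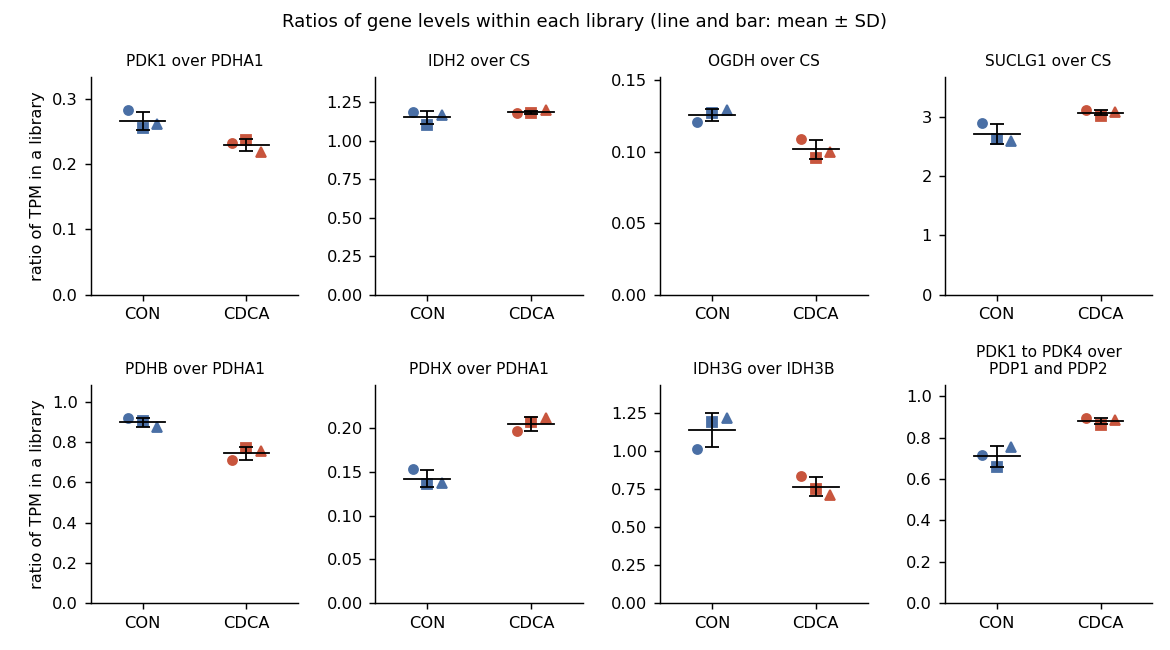
Each panel plots the ratio of TPM between the named genes in the 3 CON (blue) and 3 CDCA (red) libraries, with the mean ± SD (n = 3); the axes start at 0. Of the 8 ratios shown, chosen after the levels were seen, that of IDH2 to CS overlaps between the groups and the other 7 do not. Those of PDHA1 to CS and of SUCLG2 to SUCLG1, not shown, overlap. How often ratios of other genes overlap was not tested.

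The 9 genes had 34 listed transcripts, of which 30 were above 0 in at least 1 library and 15 had a mean of at least 1 TPM. In a fit of all 12205 transcripts with a mean of at least 1 TPM, added after the data were seen, 1 of the 15 had an FDR under 0.05, against 41.8% of all transcripts tested. It was the main transcript of IDH2, with 98.8% of the gene's TPM (log2 fold change -0.13, limma FDR 0.046). The 4 transcripts of PDHA1 had like levels, between 12.7 and 18.0 TPM on average, and log2 fold changes of -0.24, 0.0020, 0.03 and -0.30, with overlapping libraries for each. Both transcripts of CS had lower means in CDCA, with log2 fold changes of -0.16 and -0.17 (limma FDR 0.30 and 0.16).

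OGDH and FH had transcripts that differed in opposite directions without overlap between the groups. Transcript means also went both ways in PDHA1, IDH2, SUCLG1 and MDH2, but not without overlap in both directions. Of the 30 transcripts above 0, the groups did not overlap for 9, among them 4 of 6 for OGDH and 2 of 3 for FH, against 25% of all transcripts above 0 in a library. In the fit of all transcripts, no transcript of OGDH or FH with a mean of at least 1 TPM passed FDR 0.05, whereas the main FH transcript had an FDR of 0.043 in the fit with 1 transcript per gene. The most abundant transcript of OGDH was listed at 2.45, 2.15 and 3.20 TPM in the CON libraries, compared with 1.43, 2.09 and 1.40 TPM in the CDCA libraries (limma FDR 0.074), and that of rank 2 at 1.79, 1.52 and 0.69 TPM in the CON libraries, compared with 0, 0.61 and 0.29 TPM in the CDCA libraries. The transcript of rank 3 was at 0.49, 0.51 and 0.41 TPM in the CON libraries, compared with 1.06, 0.87 and 0.97 TPM in the CDCA libraries. The groups did not overlap for these 3, while the transcripts of ranks 4 and 5, with means of 0.632 and 0.247 TPM, overlapped. The transcript of rank 6, with a mean of only 0.127 TPM, was higher in CDCA without overlap. The rank 3 transcript made up 8.68% ± 1.2 (SD, n = 3) of OGDH in CON and 24.9% ± 1.8 (SD, n = 3) in CDCA. The main transcript of FH was listed at 2.95, 2.44 and 2.24 TPM in the CON libraries, compared with 3.97, 4.58 and 3.05 TPM in the CDCA libraries (log2 fold change 0.45, limma FDR 0.055), and its transcript of rank 2 at 0.49, 0.40 and 0.45 TPM in the CON libraries, compared with 0.22, 0.19 and 0.01 TPM in the CDCA libraries. The main FH transcript was thus higher and the minor one lower in every CDCA library. Transcripts under a mean of 1 TPM were not tested, and the table gives no transcript IDs, so the isoforms are not named here.

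**Figure D4:**
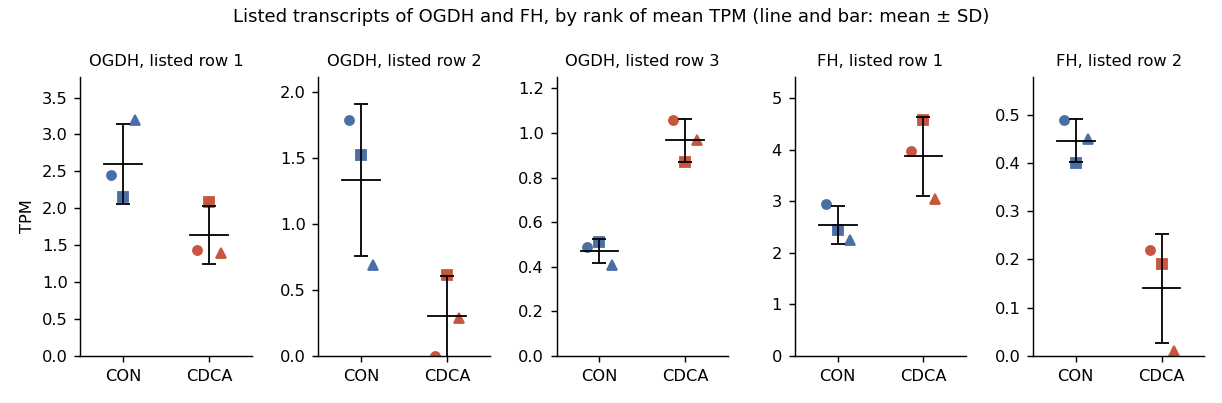
The panels plot the TPM of the 3 most abundant listed transcripts of OGDH and the 2 most abundant of FH in the 3 CON (blue) and 3 CDCA (red) libraries, with the mean ± SD (n = 3). OGDH row 3 and FH row 1 lie higher in CDCA, and OGDH rows 1 and 2 and FH row 2 lie lower, without overlap.

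Across the 6 libraries, the tested genes with a symbol whose log2(TPM + 1) followed OGDH most closely were IPO13, RUSC1 and NOA1 (Pearson's r 0.999, 0.998 and 0.996). For PDK1 they were NKRF, VKORC1L1 and RBM3 (r 0.998, 0.995 and 0.994). With 6 libraries in 2 groups, such values are common: 595 genes had r over 0.95 with OGDH and 404 with PDK1. Genes chosen in this way share the direction of OGDH and PDK1, and their log2 fold changes lay between -0.92 for NOA1 and -0.37 for VKORC1L1.

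The size of these changes depended on how the libraries were scaled. With the listed TPM rescaled to 1000000, the log2 fold change was -0.12 for PDHA1, -0.33 for PDK1, -0.15 for CS, -0.11 for IDH2 and -0.43 for OGDH. With totals of the listed rows without the mtDNA-encoded mRNAs, it was -0.29, -0.48, -0.32, -0.28 and -0.52 in the same order. This last total leaves out the transcripts not listed as well as these mRNAs. On that scale 6 of the 7 tested genes were lower at an FDR under 0.05, where 31.9% of all tested genes were lower, and FH was at 0.19 (limma FDR 0.30). With each library scaled to the same median ratio over the tested genes, the log2 fold changes were -0.20, -0.39, -0.22, -0.18 and -0.44 in the same order, and SUCLG1 was at -0.04 (limma FDR 0.40). Which total fits these cells better was not tested.

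**Figure D5:**
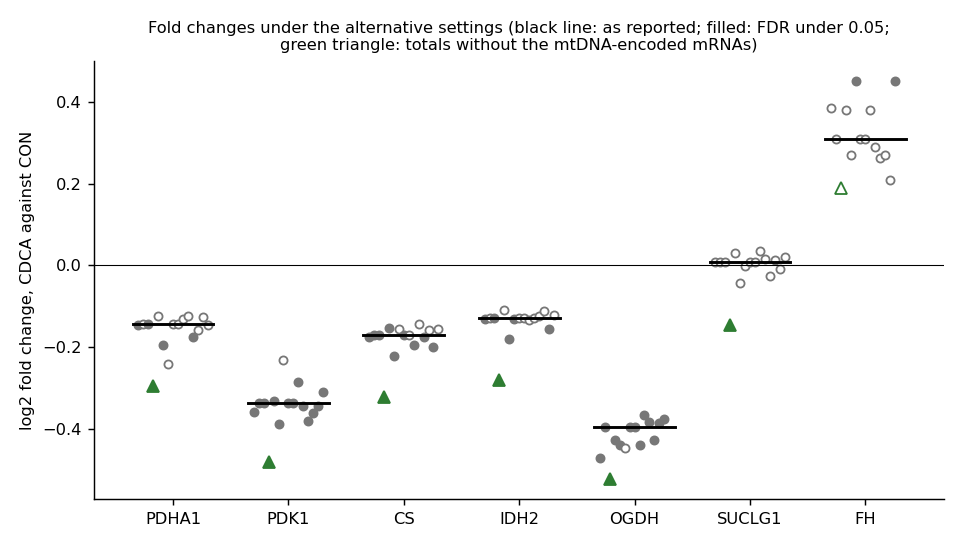
For each of the 7 tested genes, points give the log2 fold change, CDCA against CON, under each other way of filtering, scaling or fitting the data, filled where the FDR was under 0.05, and the black line gives the value as reported. OGDH and PDK1 stay below -0.2 throughout, and the green triangles, totals without the mtDNA-encoded mRNAs, lie lowest for each gene among the settings plotted, which do not include single transcripts other than the highest listed.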

How the data were processed

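The authors sequenced 6 libraries of IPEC-J2 total RNA, estimated abundance with RSEM and deposited TPM values, 1 row for each of 63041 transcripts without transcript IDs. The submitters' processing notes name Bowtie 0.12.2 and the mouse build mm10, whereas the gene IDs are those of the pig; the pig build and annotation are not given in the sources used here. The table holds no read counts, so counting error has no interval; the sequencing depth stated in the paper was not used.

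Rows were summed per gene ID, and blank gene names were filled from a list that pairs Ensembl IDs with symbols (17501 IDs named). CDCA and CON, as labelled, were compared in R 4.3.3 with limma 3.58.1 on log2(TPM + 1), for genes whose mean reached 1 TPM; the authors' edgeR needs counts. On this scale fold changes of weakly expressed genes are understated. Intervals are 95% intervals from the same fit. The steps were tested on simulated data. The 9 genes, the gene lists and the ways of scaling were chosen with earlier results of these data known. Genes named were the 9, pathway genes past both limits, the 2 largest changes of each step, untested pathway genes, and the 3 closest profiles of the 2 genes of the 9 that changed most; DLD, PDHX, PDK3, SDHB, SDHC, MDH1, ME1, ME2 and GLUD1 were named after their values were seen, and so was the choice of transcripts shown. Alternatives were another pseudocount, filter, scaling or transcript choice, limma without the trend, the replicate block and each library left out. The result for 1 gene of the wider list is left out of the list, its counts and its plot. No sequences or coordinates are given.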

Additional observations from a re-analysis of the deposited data

How the results depend on the processing

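Of the 9 genes, 7 were tested and 5 were lower at an FDR under 0.05, against 23.9% of all tested genes. That count was 3 with no filter on low values and 3 with the listed TPM rescaled to 1000000, where all 9 were tested. It was 1 with the highest listed transcript and 2 with limma without the trend. Over all tested genes, 2054 of 22549, 2105 of 10947, 1839 of 8207 and 2063 of 8708 were lower in that order. The count for the 9 genes lay between 2 and 4 with each library left out, where a group held 2 libraries. For the other settings the cause was not tested. With the highest listed transcript, 1 of the 9 genes, FH, was higher (log2 fold change 0.45, limma FDR 0.043), and leaving out single libraries gave between 0 and 1. With the replicate number as a block, 3 of the 9 genes were lower, PDHA1 and IDH2 being lost; the labels do not say that a number marks a shared culture, and the deviations of same-numbered libraries had correlations of -0.04, -0.09 and -0.05, so the numbers were not taken as pairs. In the wider list of 51 genes, 5 were higher. That count was 3 with totals of the listed rows without the mtDNA-encoded mRNAs and 7 with the listed TPM rescaled to 1000000. In the same list 17 were lower, between 14 and 21 under all alternatives. PDK1 and OGDH had an FDR under 0.05 in 14 of 18 and 13 of 15 alternatives, the exceptions being the highest listed transcript (0.058 and 0.059) and each tested transcript by itself (0.072 to 0.37 for PDK1, 0.074 for OGDH). Directions turned for SUCLG1 (-0.14) and SDHB (-0.020) with totals of the listed rows without the mtDNA-encoded mRNAs. In the fit by transcript, they turned for the PDHA1 transcripts of rank 2 (0.0020) and rank 3 (0.027). SUCLG1 kept its sign in 12 of 18 alternatives and was called in 1 of them. MPC2, LIAS, ME2, SUCLG2, SDHC and IDH3B, none of them called as reported, also changed sign under at least 1 setting each, without a call there. With the replicate block the FDR of SDHD was 0.033. Leaving out low genes at 5 TPM removed OGDH and FH from the test, and with no filter IDH3A and MDH2 had log2 fold changes of 0.05 and 0.13 (limma FDR 0.90 and 0.76). Without counts, no counting error can be given, and the low values of IDH3A and MDH2 cannot be told from transcripts missing in the table.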
